A study of Rattus norvegicus with 56 samples.

Results

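The cortical collecting duct (CCD) was examined 30 min after one ureter of a rat had been tied off. The comparison set CCD from male Sprague-Dawley rats with a ligated left ureter (unilateral ureteral obstruction, UUO) against CCD from sham rats, whose left ureter was exposed but not ligated. Each arm held 4 numbered replicates with 2 libraries each, so 16 of the 56 samples of the series entered the comparison. The labels name no genotype, drug or transgene, and both arms had the same anaesthesia and flank incision. Genes entered the test where they reached 1 TPM (a transcript level scaled to the library total and divided by transcript length) in at least 4 of the 8 replicates, which 11369 of 32883 genes did. Values for the cortical thick ascending limb (cTAL) at 30 min and for CCD at 3 h are given where a result of CCD at 30 min was set against them. All other samples, 8 of whole kidney among them, were not used here.

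The CCD is lined by principal cells and intercalated cells. Principal cells take up water through Aqp2 in their apical membrane under the control of vasopressin, and take up sodium and secrete potassium under the control of aldosterone. Intercalated cells secrete acid or base. Ligation of a ureter raises the pressure in the tubules upstream, and loss of Aqp2 with failure to concentrate urine is a known later consequence of obstruction in rats.

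The libraries carried the markers of the segment. Summed over the 8 principal cell markers fixed for this comparison, the level was 5948 to 10245 TPM in UUO replicates and 7496 to 12315 TPM in sham replicates. The 8 intercalated cell markers summed to 4128 to 6005 TPM in UUO and 4817 to 6439 TPM in sham. Between 8744 and 11189 genes reached 1 TPM in a UUO library and between 11257 and 11916 in a sham library, so every UUO library listed fewer than any sham library. One library stood apart, library 2 of UUO number 2, with the 8744 genes. Its log2 levels correlated with those of the other 7 UUO libraries at 0.868 to 0.903, against 0.933 to 0.979 among those 7. In bulk tubules, fewer cells of a type and less RNA per cell cannot be told apart.

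**Figure D1:**
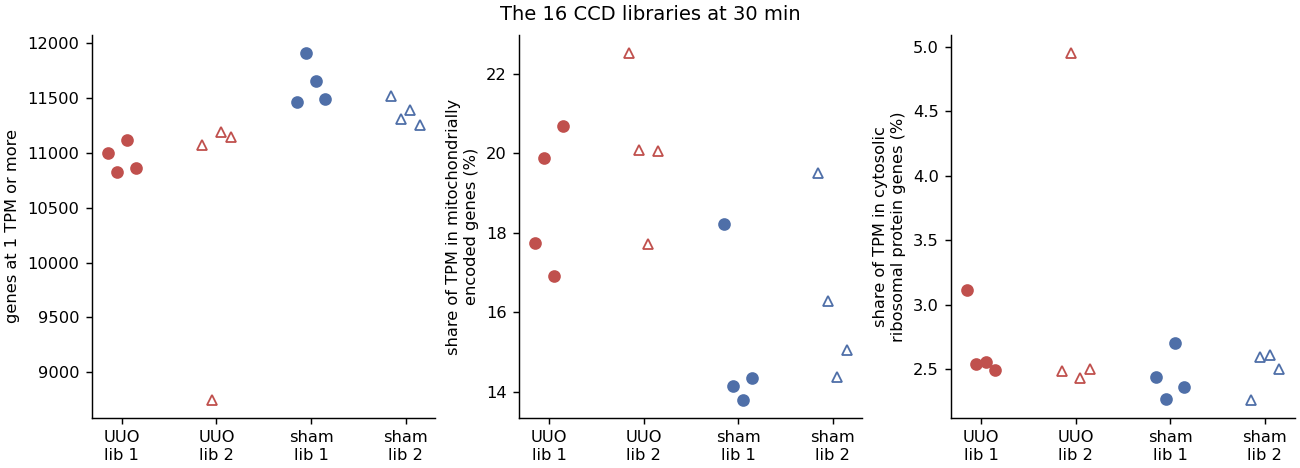
Each point is 1 of the 16 CCD libraries at 30 min, with UUO (red) left of sham (blue), library 1 filled and library 2 open, numbers 1 to 4 from left to right. The panels give the number of genes at 1 TPM or more, and the percent of all TPM that fell to mitochondrially encoded and to cytosolic ribosomal protein genes. Library 2 of UUO number 2 is lowest in genes (8744) and highest in ribosomal protein share (4.95%).

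Obstruction for 30 min gave almost no called change in CCD. With limma on log2(TPM + 1) and Benjamini-Hochberg adjustment over the 11369 genes, 3 genes passed an adjusted p of 0.05 (0.0264%), 1 higher (0.0088%) and 2 lower (0.0176%) in UUO. Of these, AABR07007730.1 and AABR07051395.1 are clone-named loci with no described function in the sources used here, and RGD1560398 is an older name that RefSeq gives for an uncharacterised protein-coding gene. The unadjusted p was under 0.05 for 1789 genes (15.7%), 52 higher (0.457%) and 1737 lower (15.3%). The values of 996 genes (8.76%) did not overlap between the 4 UUO and 4 sham replicates, 51 higher (0.449%) and 945 lower (8.31%).

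The excess of lower genes went with a shift of the whole distribution. The median log2 change of all genes tested was -0.31, and 86.3% of genes lay below 0. By replicate, the median gene stood at -0.15, -0.80, -0.04 and -0.18 relative to the sham mean in UUO numbers 1 to 4, and at -0.14, 0.03, 0.04 and 0.08 in sham numbers 1 to 4. UUO number 2, which holds the sparse library, was farthest from sham, and UUO number 3 lay above the lowest sham number. Using only library 1 for UUO number 2 gave a median of -0.17, and the median was -0.02 after median-of-ratios rescaling, 0.04 after quantile normalization and -0.27 with the mitochondrially encoded genes removed. Log2 changes below are therefore set beside the -0.31 of all genes. List counts stand beside 86.3% of all genes below 0, 15.3% lower at an unadjusted p under 0.05 and 8.31% lower without overlap.

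AABR07007730.1 (ENSRNOG00000018045) was the single gene called higher. Its level was 21.44, 20.77, 25.67 and 22.99 TPM in library 1 and 18.46, 43.66, 21.63 and 24.17 TPM in library 2 of UUO numbers 1 to 4. In the 8 sham libraries it was listed between 0 and 0.70 TPM, so it passed the filter through the UUO arm alone. The log2 change was 4.41 ± 0.20 (SE, n = 4 each, limma adjusted p = 1.45e-05), higher in 4 of 4 UUO replicates. The same locus separated the arms in cTAL at 30 min, with 18.65, 25.05, 21.06 and 19.84 TPM in UUO numbers 1 to 4 and 0 listed in all 4 sham libraries. Among the genes tested in CCD at 30 min it was the single one whose levels separated all 24 libraries of both segments by arm. At 3 h it stood at 10.62 and 12.83 TPM in the CCD libraries and 14.46 TPM in the cTAL library of UUO number 4. No other library at 3 h was above 1.61 TPM, UUO numbers 1 to 3 included. A difference between individual rats and a difference made by ligation cannot be told apart at 30 min, where each arm has its own rats.

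**Figure D2:**
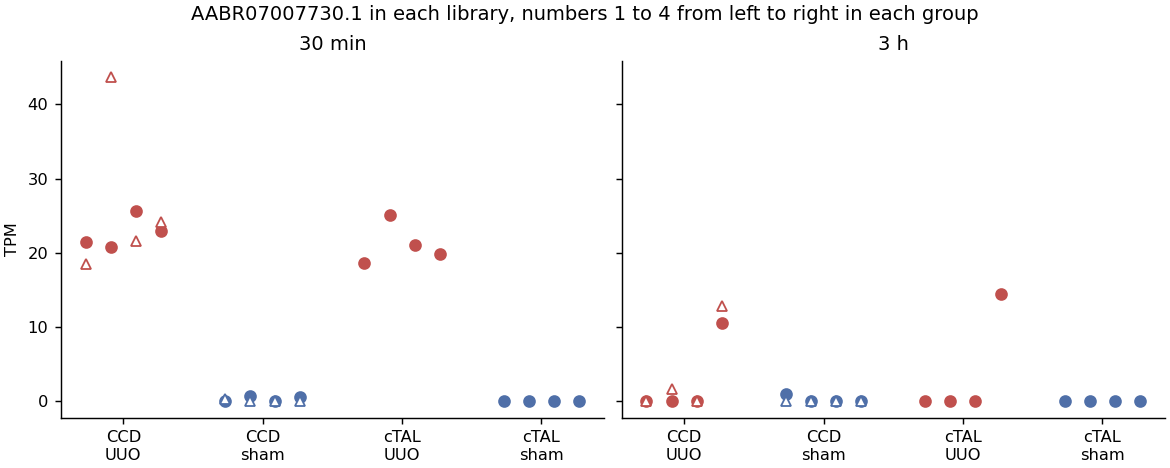
TPM of AABR07007730.1 (linear axis) in every CCD and cTAL library at 30 min (left) and 3 h (right), UUO in red and sham in blue, library 1 filled and library 2 open. All 12 UUO libraries at 30 min lie at 18.46 TPM or more, and at 3 h the 3 libraries of UUO number 4 lie at 10.62 TPM or more.

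The 2 genes called lower were listed at 0 in every UUO library of CCD, so both passed the filter through the sham arm alone. AABR07051395.1 (ENSRNOG00000046655) had 12.82, 18.72, 5.63 and 9.60 TPM in library 1 and 1.23, 0, 4.01 and 2.91 TPM in library 2 of sham numbers 1 to 4. RGD1560398 (ENSRNOG00000037566) had 9.71, 9.46, 6.83 and 24.36 TPM in library 1 and 2.41, 0, 10.03 and 0 TPM in library 2. The arms did not overlap as replicates, but single sham libraries reached 0 as well. The limma adjusted p was 0.000228 for AABR07051395.1 and 0.0239 for RGD1560398, and no fold is given against a group listed at 0. In cTAL at 30 min both were listed at 0 in all 4 sham libraries and in 3 of 4 UUO libraries. Neither was called with the sham arm taken from library 2 alone (adjusted p = 0.410 for both), and leaving out any one UUO number, sham number 1 or sham number 4 ended the call of RGD1560398 (limma adjusted p from 0.0644 to 0.242). With no filter beyond 1 replicate above 0 TPM, RGD1560398 was not called (limma adjusted p = 0.145), whereas AABR07051395.1 was (adjusted p = 0.00309). In sham CCD at 3 h, AABR07051395.1 had 24.12, 7.65, 8.57 and 7.76 TPM in library 1 and 7.29, 3.82, 0 and 0 TPM in library 2. RGD1560398 had 0, 16.89, 9.52 and 8.18 TPM there in library 1 and 0, 8.31, 0 and 0 TPM in library 2. In UUO CCD at 3 h both were listed at 0, except for AABR07051395.1 at 3.77 TPM in library 1 of number 2. In cTAL at 3 h each was above 0 in some libraries of both arms.

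The paired libraries of the sham arm were not alike. Within each sham number, library 1 was compared with library 2 by limma, a comparison added after the data were seen. In sham, 636 genes were called (5.59%), 634 of them higher (5.58%) and 2 lower (0.0176%) in library 1. In UUO no gene was called between the libraries by limma (0%), with 291 at an unadjusted p under 0.05. The difference itself differed between UUO and sham for 230 genes (2.02%), 229 of them with a lower difference in UUO (2.01%) and 1 with a higher one (0.0088%). The median of the 634 genes was 5.39 TPM in UUO library 1, 5.31 TPM in UUO library 2, 17.3 TPM in sham library 1 and 6.22 TPM in sham library 2. These genes were chosen by the sham difference, so the sham medians are a description. The UUO values did not enter that difference, but the fit that tested it pooled the spread of both arms. Sham library 1 stood above sham library 2 in these genes by that choice, while sham library 2 lay near both UUO sets. Over all genes tested, the medians of library 1 and library 2 were 10.8 and 9.74 TPM in UUO and 13.7 and 13.2 TPM in sham. Sham libraries correlated at a median of 0.961 among the 4 of library 1, 0.963 among the 4 of library 2 and 0.947 across the 2 sets.

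The same split appeared in other rats. At 3 h, 364 genes were higher and 1 was lower in sham library 1 than in sham library 2 of CCD (365 of 10530, 3.47%), and no gene was called in UUO, with 500 at an unadjusted p under 0.05. Of the genes tested at both times, 276 were higher in sham library 1 at both, which is 47.1% of the 586 found at 30 min and 76.7% of the 360 found at 3 h, against 3.53% of all 10203 genes at 3 h. At 3 h, the 586 genes had a median log2 difference between libraries of 0.08 in UUO and 0.98 in sham, where all genes had 0.08. The labels do not say how the 2 libraries of a number differ, and the source of the split was not tested.

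The comparison of UUO with sham depended on which library was used. Library 1 alone gave 878 called genes (7.72%), 6 higher (0.0528%) and 872 lower (7.67%) in UUO. Library 2 alone gave 1 (0.0088%), AABR07007730.1, with 520 genes at an unadjusted p under 0.05. With the sham arm taken from library 2 and UUO from both, the count was again 1, and with the sham arm from library 1 it was 773 (6.8%), 769 lower (6.76%) and 4 higher (0.0352%).

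**Figure D3:**
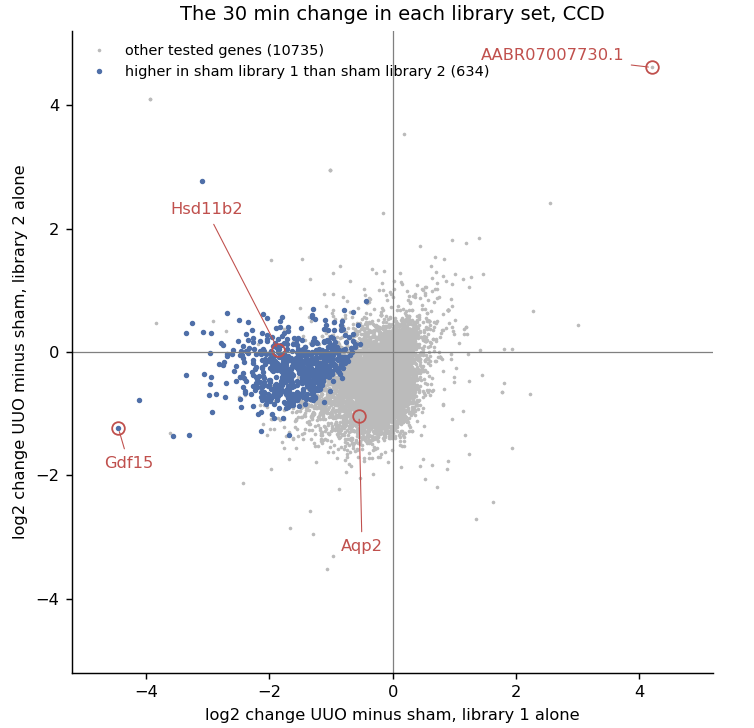
Each point is 1 of the 11369 tested genes, placed by its log2 change (UUO minus sham, log2(TPM + 1) scale) in library 1 alone (x axis) and in library 2 alone (y axis). The 634 genes that were higher in sham library 1 than in sham library 2 are blue. Both axes subtract the sham values that chose them. A lower change in library 1 than in library 2 is therefore in part set by that choice. Hsd11b2 is at -1.85 and 0.03, whereas AABR07007730.1 is at 4.20 and 4.61.

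Hsd11b2, the enzyme that inactivates glucocorticoids in principal cells and so keeps the mineralocorticoid receptor free for aldosterone, had this pattern. In UUO it had 318, 371, 401 and 331 TPM in library 1 and 343, 508, 326 and 427 TPM in library 2 of numbers 1 to 4. In sham it had 1092, 1198, 1668 and 1239 TPM in library 1 and 311, 529, 388 and 345 TPM in library 2. The 4 values of sham library 1 lay at 1092 TPM or more, and those of sham library 2 lay within or beside the UUO values. As means of both libraries, Hsd11b2 averaged 378 ± 45.6 TPM in UUO, against 846 ± 138 TPM in sham (SD, n = 4 each), without overlap, a log2 change of -0.91 ± 0.15 that was not called (limma adjusted p = 0.181). The change was -1.85 in library 1 (adjusted p = 0.001) and 0.03 in library 2.

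Gdf15, a secreted stress cytokine of the TGF-beta family, had the lowest log2 change of all genes tested. It had 10.86, 5.06, 24.53 and 41.94 TPM in UUO library 1 and 5.25, 12.34, 27.53 and 49.99 TPM in UUO library 2. In sham it had 119.6, 371.4, 1553 and 255.3 TPM in library 1 and 7.32, 71.85, 70.85 and 84.61 TPM in library 2. The highest values were again those of sham library 1, and the lowest sham library lay inside the UUO range. The log2 change was -2.84 ± 0.75 (limma adjusted p = 0.237, not called), with -4.45 in library 1 and -1.24 in library 2.

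Among genes with a symbol, at least 10 TPM and no overlap, the 12 lower ones with the smallest p included 11 that, like Hsd11b2, were higher in sham library 1 than in sham library 2 (limma adjusted p from 0.000674 for Coq2 to 0.00208 for Vapa). Over all genes tested, 634 (5.58%) were higher in sham library 1. The sham means that picked the 12 hold the same library 1 values, so the count of 11 is in part set by the choice. Besides Hsd11b2 the 11 were Hnrnpab, which binds nuclear RNA, the cytokine Ctf1, the mitochondrial proteins Mpv17l2, Mlycd, Timm29 and Coq2, the trafficking proteins Rab2a and Vapa, the ubiquitin ligase Rnf187 and the chromosome protein Bod1. Their log2 changes were -1.68 for Mpv17l2, -1.62 for Hnrnpab, -1.04 for Coq2 and -0.90 for Rab2a, and none was called. In library 2 alone they lay at -0.40 for Mpv17l2, -0.76 for Hnrnpab, 0.01 for Coq2 and -0.09 for Rab2a. Coq2, which acts in ubiquinone synthesis, had 2.64 to 5.69 TPM over the 8 UUO libraries. It had 18.12, 21.86, 23.93 and 26.26 TPM in sham library 1 and 3.31, 5.16, 4.31 and 4.47 TPM in sham library 2.

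Cycs, the electron carrier cytochrome c, was the exception among the 12. In UUO it had 306, 533, 610 and 551 TPM in library 1 and 388, 205, 290 and 475 TPM in library 2, and in sham 879, 682, 625 and 699 TPM in library 1 and 624, 548, 732 and 764 TPM in library 2. UUO was lower in both libraries, with log2 changes of -0.56 and -1.03, and the single libraries overlapped. The change over both was -0.80 ± 0.16 and not called (limma adjusted p = 0.235).

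**Figure D4:**
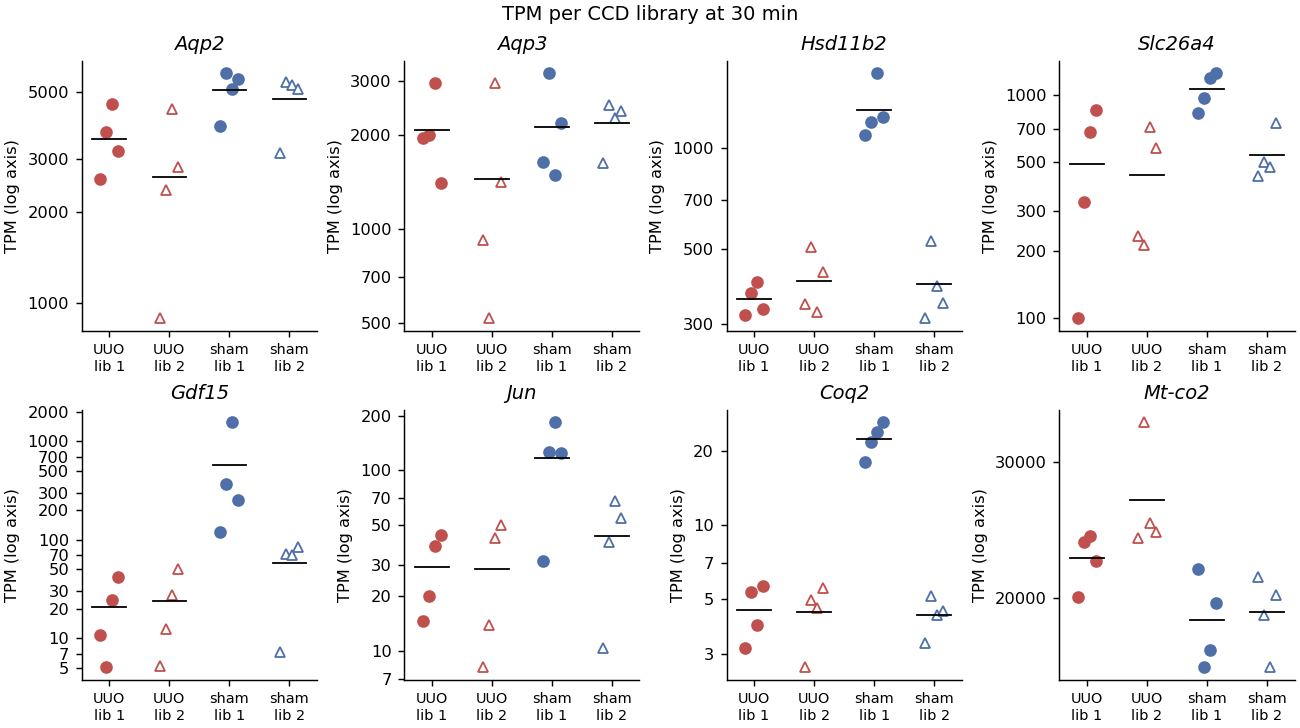
TPM (log axis, own range per panel) of 8 genes in each CCD library at 30 min, UUO (red) left of sham (blue), library 1 filled and library 2 open; bars are means of 4 libraries. In Hsd11b2, Gdf15 and Coq2 sham library 1 lies above the other 3 sets of libraries, whereas Aqp2 is similar in both sham libraries.

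Water transport genes lay below sham in mean level, and none was called. Of 21 genes in the list of water channels, the vasopressin receptor, its cyclic AMP pathway and vesicle proteins, 15 were tested, all 15 with a log2 change below 0, with 2 at an unadjusted p under 0.05 and 2 without overlap. Over all genes tested, 86.3% were below 0, 15.3% were lower at that p and 8.31% were lower without overlap, so these counts were near those of all genes. Their median was -0.44, beside -0.31 for all genes, and -0.16 beside -0.02 after median-of-ratios rescaling. Aqp2 had 1733, 3024, 4459 and 3002 TPM in UUO numbers 1 to 4 and 3494, 5556, 5196 and 5302 TPM in sham. UUO number 3 lay above sham number 1, so the arms overlapped. The log2 change was -0.79 ± 0.29 (limma adjusted p = 0.280), lower than the sham mean in 4 of 4 UUO replicates, with -0.55 in library 1 and -1.03 in library 2. Aqp3, the basolateral water channel, averaged 1766 ± 792 TPM in UUO and 2163 ± 524 TPM in sham, and Aqp4, its basolateral partner, 54.2 ± 23.9 and 62.5 ± 16.3 TPM. Avpr2, the vasopressin receptor, averaged 399.6 ± 122 TPM in UUO and 492 ± 61.3 TPM in sham, and all 3 overlapped. Without UUO number 2 the log2 change of Avpr2 was -0.09, against -0.48 with it. Vamp2, a vesicle fusion protein, had a log2 change of -1.07 ± 0.42 (limma adjusted p = 0.292), and Prkar2a, a regulatory subunit of protein kinase A, -0.44 ± 0.20 (adjusted p = 0.326).

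Sodium and potassium transport genes gave a like picture. Of 19 tested genes of 20, 17 were below 0, 4 had an unadjusted p under 0.05 and 2 did not overlap, with a median of -0.54 and none called. That median was -0.27 with only library 1 of UUO number 2 used and -0.19 after median-of-ratios rescaling, beside -0.17 and -0.02 for all genes. Over all genes tested, 86.3% were below 0, 15.3% were lower at an unadjusted p under 0.05 and 8.31% were lower without overlap. The sodium channel subunits Scnn1a, Scnn1b and Scnn1g had log2 changes of -0.997 ± 0.51, -0.54 ± 0.29 and -0.57 ± 0.37, all with overlap. Scnn1a was at 12.97, 34.53, 92.30 and 63.50 TPM in UUO numbers 1 to 4 and at 82.83, 59.74, 80.31 and 96.28 TPM in sham. UUO numbers 1 and 2 were low while number 3 was within the sham range. Wnk4, a kinase that regulates salt transport, had -0.83 ± 0.29. The mineralocorticoid receptor gene Nr3c2 and the potassium channel gene Kcnj1 had -0.48 ± 0.50 and -0.54 ± 0.39, and in library 1 alone both lay above 0, at 0.08 and 0.01. Without UUO number 2, Kcnj1 was at -0.11 and Nr3c2 at 0.11.

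Intercalated cell genes were spread around the median of all genes. Of 19 tested genes of 20, 14 were below 0 and 5 above, 2 had an unadjusted p under 0.05, none was called and none was without overlap. The median was -0.33, but 0.03 in library 1, -0.66 in library 2 and 0.04 after median-of-ratios rescaling. Slc26a4, the chloride-bicarbonate exchanger of base-secreting cells, had 165.7, 271.5, 699.0 and 713.1 TPM in UUO numbers 1 to 4 and 628.6, 729.9, 831.2 and 996.5 TPM in sham. UUO numbers 1 and 2 lay under all sham values and numbers 3 and 4 within them (log2 change -0.98 ± 0.45, limma adjusted p = 0.326). Dmrt2, a transcription factor of intercalated cells, had -1.12 ± 0.33, with -1.997 in library 1 and -0.25 in library 2, and the exchanger Slc4a8 had -0.53 ± 0.21. Slc4a1, the exchanger of acid-secreting cells, Atp6v1b1, a proton pump subunit, and Rhcg, an ammonia channel, had -0.38 ± 0.42, -0.20 ± 0.31 and -0.31 ± 0.24. All 3 lay above 0 in library 1 alone, at 0.11, 0.26 and 0.08.

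Immediate early genes, which cells switch on within minutes of a stimulus, were not called in either direction. Of 27, 16 were tested, 14 below 0 and 2 above, 3 with an unadjusted p under 0.05 and all overlapping, with a median of -0.38. Over all genes tested, 86.3% were below 0 and 15.3% were lower at that p. Fos had 1510, 161.1, 828.2 and 739.6 TPM in UUO numbers 1 to 4 and 222.6, 1183, 1337 and 1124 TPM in sham. UUO number 2 and sham number 1 were low in their arms, and the ranges overlapped almost fully (log2 change -0.39 ± 0.75, limma adjusted p = 0.740). Without UUO number 2 the change was 0.30. Jun had 11.37, 17.00, 39.91 and 46.85 TPM in UUO and 20.95, 83.61, 126.2 and 89.31 TPM in sham, with -1.85 in library 1 and -0.65 in library 2. Egr1 had a log2 change of -1.13 ± 0.57, Ier2 of -1.54 ± 0.59, Junb of -1.94 ± 0.79 and Ier5 of -1.04 ± 0.35. Sham number 1 was the lowest sham replicate for Fos, Jun, Junb, Egr1, Ier2 and Atf3 alike. Atf3, a stress-induced transcription factor, was at 99.56, 87.57, 184.7 and 179.6 TPM in UUO and 10.88, 152.5, 341.7 and 235.3 TPM in sham. Its log2 change of 0.23 ± 0.91 became -0.84 without sham number 1.

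Transcription factors described as regulators of Aqp2 were all below 0 in 15 tested of 20, with a median of -0.44 and 4 at an unadjusted p under 0.05. Over all genes tested, 86.3% were below 0 and 15.3% were lower at that p. After median-of-ratios rescaling the median of this list was -0.21, beside -0.02 for all genes. Xbp1 was at -1.57 ± 0.51, Jund at -1.24 ± 0.36 and Gata2 at -1.19 ± 0.46, with -2.26, -1.90 and -1.04 in library 1 and -0.88, -0.57 and -1.34 in library 2. The list of MAP kinase feedback inhibitors, which also holds the stress-response gene Gadd45a, had 11 of 16 tested, 8 below 0 and a median of -0.39. Spred2 was at -1.005 ± 0.23, with -1.63 in library 1 and -0.38 in library 2, Errfi1 at -0.67 ± 0.29 and Gadd45a at -0.65 ± 0.28. No gene of either list was called.

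Inflammation and injury genes also gave no call. Of 20 chemokine and cytokine genes 10 were tested, 6 below 0 and 4 above, with a median of -0.01 (0.21 after median-of-ratios rescaling). Cx3cl1, a membrane-bound chemokine, was at -0.87 ± 0.41 and Spp1, osteopontin, at -0.84 ± 0.52. Ccl2, which draws monocytes, did not reach the level needed for a test, with 0.48, 1.32, 0.64 and 0.11 TPM in UUO and 8.95, 0.56, 2.41 and 0.29 TPM in sham. The NF-kB pathway had 18 of 25 tested, 16 below 0 and a median of -0.47. Tnfaip2, an NF-kB target, was at -1.43 ± 0.43 and Nfkb2, a subunit, at -1.11 ± 0.38. Ikbkg, the regulatory subunit of the IkB kinase, had 10.28, 6.23, 11.35 and 8.75 TPM in UUO and 15.01, 31.64, 16.76 and 14.59 TPM in sham, without overlap. Its log2 change of -0.99 ± 0.30 was alike in both libraries, at -1.002 and -0.979 (limma adjusted p = 0.255). Of 23 epithelial injury markers 18 were tested, 12 below 0 and 6 above, with a median of -0.11 (0.14 after median-of-ratios rescaling). S100a6, a calcium-binding protein, had 106.2, 245.3, 54.26 and 84.52 TPM in UUO and 40.83, 49.41, 57.66 and 49.77 TPM in sham. UUO numbers 1, 2 and 4 were above all sham values and number 3 was among them (log2 change 1.03 ± 0.37, limma adjusted p = 0.279). Lcn2, a secreted injury marker, was low in both arms, with 1.59 ± 0.86 TPM in UUO, against 4.51 ± 3.93 TPM in sham, and Krt7, a keratin, averaged 633 ± 363 and 756 ± 91.0 TPM in UUO and sham.

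The remaining stress and structure lists had medians close to that of all genes, with none called. Their counts below 0 stand beside the 86.3% of all genes tested. At an unadjusted p under 0.05, 3 mechanosensing, 1 cell junction, 6 heat shock and 2 integrated stress response genes were lower, beside 15.3% of all genes tested. Mechanosensing and YAP genes had 16 of 21 tested, 14 below 0 and a median of -0.48. Wwtr1, the paralogue of YAP, had a log2 change of -1.38 ± 0.33 without overlap, with -2.19 in library 1 and -0.57 in library 2. P2ry1 and P2ry2, receptors for extracellular nucleotides, were at -0.68 ± 0.24 and -0.74 ± 0.32. Cell junction genes had 18 of 18 tested, 17 below 0 and a median of -0.40, with Epcam at -1.26 ± 0.49, Tjp3 at -1.22 ± 0.60 and Ctnnb1 at -0.97 ± 0.49. Heat shock proteins had 17 of 17 tested, 16 below 0 and a median of -0.37, with Hspb1 at -1.53 ± 0.53, Hspa4 at -0.83 ± 0.29 and Hspa2 at -1.03 ± 0.39. Integrated stress response genes had 15 of 18 tested, all 15 below 0, and a median of -0.38. In that list Sesn2 was at -1.08 ± 0.43, Phgdh at -0.90 ± 0.37 and Ddit3 at -0.86 ± 0.42.

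Targets and regulators of NRF2, the oxidant-response factor, had 15 of 16 tested, 13 below 0 and a median of -0.34 (0.03 after median-of-ratios rescaling), with Keap1 at -1.25 ± 0.42, Hmox1 at -0.84 ± 0.35 and Gclm at -0.61 ± 0.25. Gclm, a subunit of the enzyme that starts glutathione synthesis, was at -1.79 in library 1 and 0.57 in library 2. Glycolysis and hypoxia genes had 20 of 22 tested, 19 below 0 and a median of -0.40, with Pfkl at -0.53 ± 0.21, Pdk1 at -0.99 ± 0.40 and Eno1 at -0.45 ± 0.19. Prostaglandin genes had 11 of 14 tested, 10 below 0 and a median of -0.42. At an unadjusted p under 0.05, 3 NRF2, 3 glycolysis and hypoxia and 4 prostaglandin genes were lower, beside 15.3% of all genes tested. Ptges2, a prostaglandin E synthase, was at -1.14 ± 0.41, the prostaglandin transporter Slco2a1 at -0.42 ± 0.16, and the receptor Ptger3 at -1.12 ± 0.43, with -2.12 in library 1 and -0.13 in library 2.

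Genes of the respiratory chain and the ribosome stood above the rest. All 13 mitochondrially encoded genes had a log2 change above 0 (median 0.30, 6 at an unadjusted p under 0.05, 1 without overlap). Of 72 tested nuclear genes of the respiratory complexes 56 were above 0 (median 0.15, 7 at an unadjusted p under 0.05, 5 without overlap), and of 78 tested cytosolic ribosomal protein genes 70 were above 0 (median 0.16, 1 at an unadjusted p under 0.05, 3 without overlap). Of all genes tested, 0.457% were higher at that p and 0.449% were higher without overlap, and their median was -0.31. None of the genes of these 3 lists was called. The medians had the same sign in both libraries, at 0.25, 0.12 and 0.13 in library 1 and 0.36, 0.19 and 0.20 in library 2. With only library 1 of UUO number 2 used, they were 0.28, 0.10 and 0.05, the library left out being the one with the 4.95% ribosomal share. After quantile normalization they were 0.04, 0.14 and 0.26, beside 0.04 for all genes, so the mitochondrially encoded genes then lay at the median of all genes. The mitochondrially encoded genes took 20.1%, 19.99%, 17.3% and 20.4% of TPM in UUO numbers 1 to 4 and 18.9%, 15.2%, 14.1% and 14.7% in sham, where number 1 lay within the UUO range.

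Uqcrb, a subunit of respiratory complex III, and Mpc1, the mitochondrial pyruvate carrier, were with AABR07007730.1 the 3 genes (0.0264%) with every UUO library of CCD above every sham library. Uqcrb had 1670 to 2462 TPM in the 8 UUO libraries and 1296 to 1608 TPM in the 8 sham libraries, a log2 change of 0.34 ± 0.11 (limma adjusted p = 0.255). Mpc1 had 1575 to 2687 TPM in UUO and 1337 to 1549 TPM in sham, a log2 change of 0.31 ± 0.11 (adjusted p = 0.279). The other higher genes without overlap and with the smallest p were Mt-co2, a mitochondrially encoded subunit of cytochrome oxidase (0.37 ± 0.11), Polr2k, a subunit shared by the nuclear RNA polymerases (0.41 ± 0.12), Ndufb8 and Ndufa6 of respiratory complex I (0.30 ± 0.10 and 0.32 ± 0.13), and Rps27a and Rpl23 of the ribosome (0.38 ± 0.15 and 0.25 ± 0.12). To these came Ost4 of the oligosaccharyl transferase (0.27 ± 0.11), Ly6l (0.48 ± 0.20), the protease inhibitor Cstb (0.32 ± 0.15) and the proton pump subunit Atp6v1e1 (0.22 ± 0.10). Mt-nd4l and Mt-nd4 were at 0.32 ± 0.12 and 0.41 ± 0.16, Cox7c at 0.36 ± 0.14, Rplp1 at 0.37 ± 0.17 and Rpl10 at 0.37 ± 0.17. All of these changes were above 0 in both libraries and after rescaling, except for Mt-nd4l, which was at 0 after quantile normalization, and none was called. In the opposite direction, 33 genes had every UUO library below every sham library. Pik3r1, the regulatory subunit of phosphoinositide kinase, had 9.79 to 28.13 TPM in UUO and 28.88 to 43.94 TPM in sham, and Ap1s1, a clathrin adaptor subunit, 36.56 to 65.04 and 66.73 to 87.54 TPM. Both were picked from the 33 (0.290%) after their values were seen, and neither was called.

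**Figure D5:**
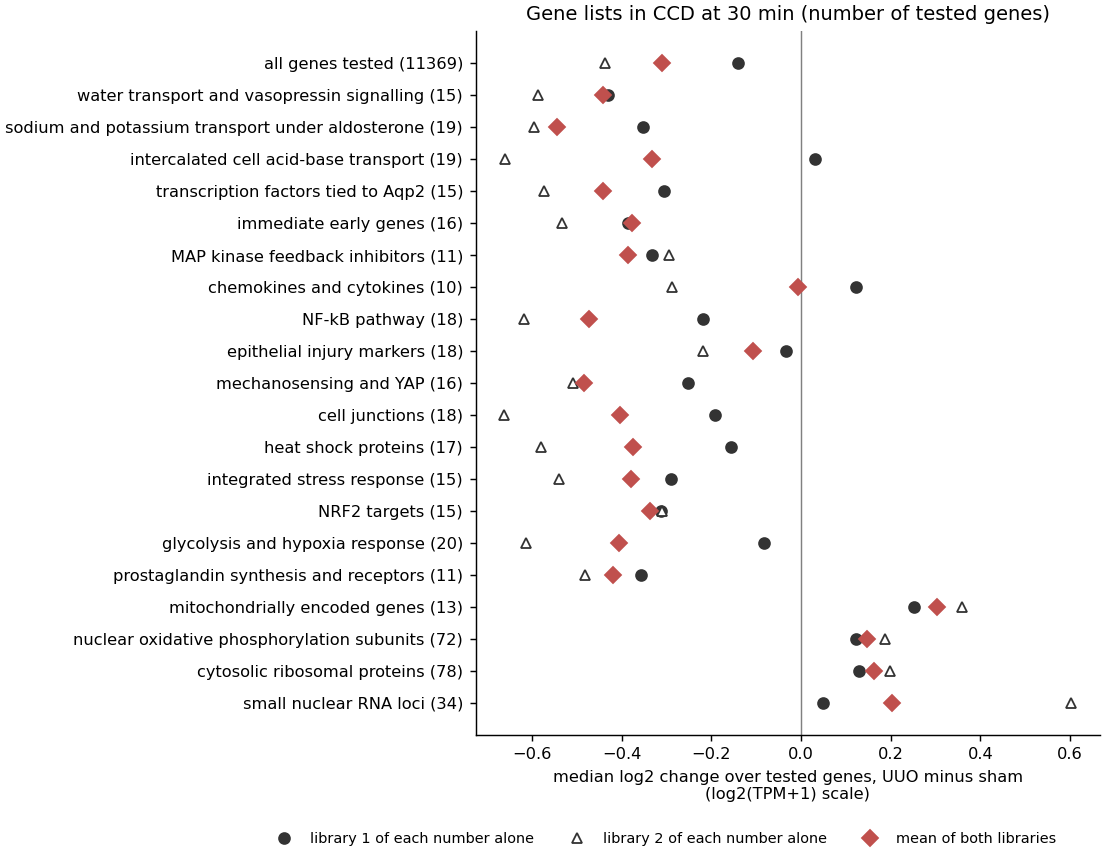
Median log2 change (UUO minus sham, log2(TPM + 1) scale) of the tested genes of each list, with the number tested in brackets, from the mean of both libraries (red diamonds), library 1 alone (filled circles) and library 2 alone (open triangles). All genes tested lie at -0.31, -0.14 and -0.44, and the mitochondrial, respiratory and ribosomal lists lie above 0 in each.

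Several list medians moved by more than 1.5 times with only library 1 of UUO number 2 used, as did the median of all genes, from -0.31 to -0.17. Intercalated cell genes were then at -0.03, NF-kB genes at -0.22, injury markers at -0.02, mechanosensing genes at -0.19, integrated stress response genes at -0.24, glycolysis genes at -0.13 and prostaglandin genes at -0.22. Chemokines and cytokines lay above 0, at 0.07.

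Small nuclear RNA loci, a list that also holds loci of the small nucleolar RNA U3, were few and erratic. Of 1457 loci 34 were tested, 26 above 0 and 8 below, with a median of 0.20 and none called. The median was -0.51 with only library 1 of UUO number 2 used, but 0.05 in library 1 alone and 0.60 in library 2 alone. Its sign thus depended on the libraries used. Loci of the same family can be near-identical copies, so the split of reads between them is uncertain. A U3 locus was at 1.72 ± 0.73, another at 1.36 ± 0.66, and a U2 locus at -1.69 ± 0.85, which was -3.84 in library 1 and 0.47 in library 2.

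Summed markers of other cell types overlapped between the arms, and none was called. The 6 thick ascending limb markers, all tested, summed to 48.1 to 141 TPM in UUO replicates and 62.8 to 525 TPM in sham, with Umod at 88.56, 15.14, 64.01 and 17.57 TPM in UUO and 433.0, 39.33, 23.98 and 18.54 TPM in sham. Sham number 1 was highest for Umod, and without it the log2 changes of -0.73 for Umod and -0.38 for Slc12a1 became 0.28 and 0.35. The 6 markers of the distal convoluted and connecting tubule, 4 of them tested, summed to 480 to 1217 TPM in UUO and 298 to 5220 TPM in sham, with Calb1 at 554 ± 348 and 1195 ± 1759 TPM. The 8 proximal tubule markers, 7 tested and all above 0, summed to 180 to 341 TPM in UUO and 60.9 to 302 TPM in sham, with Fbp1 leading at 93.0 ± 16.7 and 77.4 ± 51.4 TPM. The 7 endothelial markers, 5 tested and all below 0, summed to 12.3 to 34.8 TPM in UUO and 20.5 to 63.3 TPM in sham, led by Emcn at 8.84 ± 5.50 and 11.3 ± 3.94 TPM.

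Blood and stromal markers also overlapped between the arms in their sums. The 8 macrophage markers summed to 159 to 507 TPM in UUO and 226 to 456 TPM in sham, led by Cd74 at 167 ± 74.4 and 151 ± 41.3 TPM, and 5 of the 8 were below 0 and 3 above (median -0.10). The 4 red blood cell loci, 3 of them tested, summed to 222 to 2123 TPM in UUO and 182 to 813 TPM in sham, with Hba-a2 at 517 ± 355 and 262 ± 127 TPM. The 7 smooth muscle and fibroblast markers, 2 tested, summed to 7.93 to 15.8 TPM in UUO and 6.30 to 11.02 TPM in sham, with Dcn at 4.46 ± 2.04 and 5.94 ± 1.99 TPM. The other tested marker, Tagln, a smooth muscle cytoskeletal protein named after its values were seen, averaged 5.43 ± 2.03 TPM for UUO and 1.82 ± 1.16 TPM for sham without overlap, a log2 change of 1.15 ± 0.32 that was not called (limma adjusted p = 0.243). No podocyte, lymphocyte or neutrophil marker reached the level for a test, and the replicate sums of these lists were at most 5.58, 1.75 and 6.44 TPM in UUO and 1.39, 3.38 and 60.9 TPM in sham. In the principal cell list Aqp2 led, and 7 of 8 markers were below 0 (median -0.51, and -0.22 with only library 1 of UUO number 2 used). In the intercalated cell list Atp6v1g3 led, with a mean of 2311 ± 290 TPM for UUO and 2167 ± 230 TPM for sham, and 7 of 8 were below 0 (median -0.48, and -0.15 on the same basis). The part that cell composition had in the results above was not tested.

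The 30 min change in CCD was then set against that in cTAL, by limma on CCD minus cTAL within each number. The labels do not say whether CCD and cTAL of 1 number came from the same rat. Of 12075 genes 85 (0.704%) had a lower change in CCD and none a higher one (0%). The median difference of all 12075 genes was itself -0.23. After median-of-ratios rescaling that median was -0.01 and 0 genes were called. With the replicate number as a block the count was 0, with 1337 genes at an unadjusted p under 0.05, and it was also 0 with sham CCD from library 2 alone. With library 1 of CCD alone it was 837. Leaving out UUO number 3 of CCD and cTAL gave 766, and leaving out any other number gave 0 to 2. Among genes named above, Hnrnpab (-2.41), Mlycd (-1.39), Timm29 (-1.23), Rab2a (-1.11) and Vapa (-1.01) were called, all of them with high values in sham library 1. Those sham values also entered the test between segments. In cTAL itself, 1 of 10993 genes was called (0.0091%), AABR07007730.1 with a log2 change of 4.46 ± 0.17 (limma adjusted p = 6.5e-06). The difference between CCD and cTAL was -0.05 ± 0.16 and was not called (limma adjusted p = 0.903). Fos was at 185.1, 241.5, 245.9 and 546.2 TPM in cTAL of UUO numbers 1 to 4 and at 52.45, 19.69, 54.65 and 87.41 TPM in sham cTAL, without overlap, unlike in CCD. The log2 changes were -0.39 in CCD and 2.53 in cTAL, and their difference of -2.92 was not called (limma adjusted p = 0.173). For Egr1 they were -1.13 and 1.87, with a difference of -3.001 (adjusted p = 0.0775).

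Against CCD at 3 h, the change at 30 min was lower for 160 genes (1.37%) and higher for 30 (0.256%) of 11696 (190 in all, 1.62%), and at an unadjusted p under 0.05 it was lower for 1589 (13.6%) and higher for 347 (2.97%), each change taken within its own table. CCD at 3 h by itself had 1373 of 10530 genes called (13%). Lcn2 had a log2 change of -0.68 ± 0.37 at 30 min and 3.35 ± 0.51 at 3 h, a difference of -4.03 ± 0.69 (limma adjusted p = 0.0145). Errfi1, an inhibitor of the EGF receptor, was at -0.67 and 2.17 (difference -2.84, adjusted p = 0.014), Hmox1, the haem-degrading enzyme, at -0.84 and 1.64 (-2.49, adjusted p = 0.0353) and Gclm at -0.61 and 1.505 (-2.11, adjusted p = 0.025). Cycs was at -0.80 and 0.36 (-1.15, adjusted p = 0.0203). Tnfrsf12a, the receptor of the cytokine TWEAK, had the smallest p, at -0.34 ± 0.35 at 30 min and 4.37 ± 0.36 at 3 h (difference -4.72 ± 0.54, adjusted p = 0.000933), and was singled out after its values were seen.

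Water and sodium transport genes did not pass the test between times. Aqp2 was at -0.79 ± 0.29 at 30 min and -1.24 ± 0.19 at 3 h, where it was called (limma adjusted p = 0.00782), and the difference of 0.45 ± 0.38 was not (adjusted p = 0.577). Avpr2 was at -0.48 at 30 min and -1.76 at 3 h, Nr3c2 at -0.48 and -1.62 and Kcnj1 at -0.54 and -1.64, with differences of 1.29, 1.13 and 1.11 that were not called (adjusted p = 0.176, 0.346 and 0.302). The 3 lists with the most genes called higher at 3 h were the injury markers (12 of 18), the NRF2 genes (10 of 15) and the NF-kB genes (7 of 18), where 464 of the 10203 genes tested at both times were (4.55%). No gene of any list was called at 30 min. The change itself differed between times for 6, 5 and 3 genes of these lists, beside 1.62% of all 11696 genes in that test. The 3 lists were picked by their calls at 3 h, and the same 3 h values entered the test between times. These counts are therefore in part set by that choice. Beside the 190 genes that differed between times, the count was 35, 38 and 90 without sham number 2, 3 or 4 at 30 min and 71 without UUO number 1 at 30 min. It was 72 and 69 without UUO number 2 or 4 at 3 h, 64, 65 and 43 without sham number 2, 3 or 4 at 3 h, and 25 with library 2 of CCD alone.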

How the data were processed

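RNA from microdissected rat tubules was sequenced after SMARTer V4 cDNA synthesis and Nextera XT library preparation, per the labels' protocols. Tools named in the submitters' processing notes are RSEM 1.3.3 and STAR 2.7.3, with build Rnor_6.0. The authors deposited TPM per gene, with separate files for 30 min and 3 h. TPM keep no depth, so depth is unknown and no interval that needs it is given. Every value column matched a labelled sample (0 unmatched). Counting is not stated to use strand, so a gene and its antisense partner cannot be told apart.

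The mean of log2(TPM + 1) of the 2 CCD libraries of a number was 1 replicate. Genes whose mean TPM reached 1 in at least 4 of 8 replicates were tested two-sided with limma 3.58.1 (R 4.3.3, mean-variance trend), Benjamini-Hochberg adjusted over all genes tested and called at an adjusted p under 0.05. The fit was tested on simulated data. A log2 change is UUO minus sham and understates changes near 1 TPM; TPM levels of a replicate are the means of its 2 libraries. The labels do not say that numbers are separate rats, so p-values measure the spread between numbered replicates.

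Same-numbered UUO and sham replicates deviated together in all 4 numbers (r = 0.188, 0.148, 0.115 and 0.229 over genes; the other 12 pairs lay at -0.260 to 0.298, with UUO number 3 closest to sham number 4), so a fit with the replicate number as a block was run as an alternative. Values were read with pandas 2.3.3 and an R reader (data.table, version 1.17.8), and figures drawn with matplotlib 3.10.9 in Python 3.11.15.

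The comparison, the 20 gene lists, the 12 marker lists and the tests were chosen with earlier results of these data known. Named were every called gene, the 12 higher and 12 lower with a symbol, at least 10 TPM, no overlap and the smallest p, a fixed set that includes Aqp2 and Fos, the 3 smallest p of each list and the highest marker of each marker list; 1 gene that the rule names is not reported here. Alternatives changed the pseudocount, filter, scaling, weights, block, library and replicates used; those that take sham from 1 library, and the tests between libraries, were added after the data were seen.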

Additional observations from a re-analysis of the deposited data

Results flagged for a closer look

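Within the 4 replicates of an arm, 12 of 98 groups of values held a replicate far from the other 3 by Dixon's criterion, which chance alone gives in about 1 in 20 groups. UUO number 2, which holds the sparse library, stood apart in 5 of them: high for Mpc1 (2236 TPM) and Cstb (849 TPM), and low for Avpr2 (217 TPM), Nr3c2 (13.19 TPM) and Rhcg (761 TPM). UUO number 3 was high for Ly6l (95.4 TPM). Sham number 1 was high for Ndufb8 (1147 TPM) and low for Timm29 (10.29 TPM), Aqp2 (3494 TPM) and Fos (223 TPM). Sham number 3 was low for Atp6v1e1 (953 TPM), and sham number 4 high for Nr3c2 (45.6 TPM).

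The 30 min change differed between segments by limma on CCD minus cTAL for Hnrnpab (-2.41, adjusted p = 0.0396), Mlycd (-1.39, adjusted p = 0.0396), Rab2a (-1.11, adjusted p = 0.0396), Timm29 (-1.23, adjusted p = 0.0396) and Vapa (-1.01, adjusted p = 0.0451). With the replicate number as a block no gene was called between segments, these 5 included. All 5 were higher in sham library 1 than in sham library 2, and those sham values also entered the test between segments. The CCD change at 30 min minus that at 3 h differed for AABR07007730.1 (3.44, adjusted p = 0.0399), Lcn2 (-4.03, adjusted p = 0.0145) and Cycs (-1.15, adjusted p = 0.0203). Outside the comparisons made, AABR07007730.1 was at 14.46 TPM in cTAL of UUO number 4 at 3 h and was listed at 0 in the other 7 cTAL libraries at 3 h, sham included.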

How the results depend on the processing

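The 3 genes called in CCD at 30 min became 5 with a pseudocount of 5, 1 with a filter of 5 TPM, 37 with libraries averaged as TPM, 878 and 1 with library 1 and library 2 alone, 1 and 773 with sham from library 2 and library 1 alone, 1 with sham from library 2 and UUO number 2 from library 1, and 1 with the 16 libraries as correlated pairs; leaving out 1 replicate gave 2 to 3. Only AABR07007730.1 was called in all 27 alternatives.

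The 85 genes that differed between segments became 0 with a pseudocount of 0.1, median-of-ratios rescaling, quantile normalization, mitochondrially encoded genes removed, library 2 alone or either setting with sham from library 2, 5 without a filter, 256 with a pseudocount of 5, 837 and 838 with library 1 or sham library 1 alone, 372 with libraries averaged as TPM, 764 with array weights and 229 with UUO number 2 from library 1; leaving out 1 replicate gave 0 to 766. The 190 that differed between times became 85 with a pseudocount of 0.1, 35 without a filter, 126 at 5 TPM, 25 with library 2, 602 with array weights, 316 with UUO number 2 from library 1, and 104 and 748 with sham from library 2 and library 1; leaving out 1 replicate gave 35 to 268. The split of higher to lower, 30 to 160, became 69 to 159 with median-of-ratios rescaling and 106 to 122 with quantile normalization.

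With the replicate block, the counts were 3 in CCD at 30 min, 0 between segments and 199 between times; it ended no call of the 3 genes.

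Of 1291 refits of 48 named genes, 32 changed sign, none of them of a called gene. With library 2 alone these were Hsd11b2 (0.0339), Ctf1 (0.14), Mlycd (0.0499), Rnf187 (0.17), Vapa (0.10), Bod1 (0.0144), Coq2 (0.0143) and Atf3 (-0.11). With library 1 alone they were Nr3c2 (0.0814), Kcnj1 (0.0104), Slc4a1 (0.11), Atp6v1b1 (0.26) and Rhcg (0.0777). With sham from library 2 they were Rnf187 (0.0695), Bod1 (0.0126), Coq2 (0.0293) and Atf3 (-0.00900). With sham from library 1 they were Atp6v1b1 (0.0702) and Lcn2 (0.0202). With sham from library 2 and UUO number 2 from library 1 it was Coq2 (0.0407). After median-of-ratios rescaling they were Aqp4 (0.0533), Atp6v1b1 (0.17) and Rhcg (0.0622). With array weights they were Nr3c2 (0.00683) and Atp6v1b1 (0.0919). Leaving out 1 replicate changed the sign of Nr3c2 (-0.71 to 0.11), Slc4a1 (-0.64 to 0.12), Atp6v1b1 (-0.43 to 0.0589), Fos (-0.99 to 0.30), Atf3 (-0.84 to 0.79), Umod (-1.21 to 0.28) and Slc12a1 (-0.74 to 0.35), without UUO number 2 for Nr3c2, Slc4a1, Atp6v1b1 and Fos and without sham number 1 for the others. The causes were not tested. Unknown depth limits statements on genes near 1 TPM.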
